A study of Mus musculus with 10 samples.

Results

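Thyrotropes are the anterior pituitary cells that secrete thyroid-stimulating hormone (TSH), and they are among the rarest hormone-producing cells of the gland. The cells described here were chosen by their Tshb RNA, the message for the TSH beta subunit: a cell was kept when it held at least 2 Tshb unique molecular identifiers (UMIs, each counting 1 captured RNA molecule) and when these made up at least 0.2% of its UMIs. The rule found 200 Tshb-high cells among 22325 cells that passed the quality filters, which is 0.896% (exact 95% interval 0.776 to 1.03%, counting error only). Intervals and floors given here cover counting error only.

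The study profiled dissociated whole pituitaries of CD1 mice by single-cell RNA sequencing in 10 libraries. At 8 weeks of age, 3 libraries came from WT females and 3 from WT males, of which 1 of each sex was made by 10X Genomics and 2 of each sex by Drop-seq, and a further Drop-seq library came from mt/hGRF females. At 13 weeks, 1 Drop-seq library came from a virgin WT female and 2 came from lactating WT females. Each 8-week Drop-seq library, mt/hGRF included, pooled 2 mice by the study's methods. Another passage of the paper gives different numbers of mice for the 8-week WT and mt/hGRF Drop-seq cells. The virgin library came from 1 mouse and lactating replicates 1 and 2 from 1 and 2 mice. How many mice a 10X Genomics library held was not clear. The mt/hGRF and virgin groups have 1 library each, so the values of the mt/hGRF, virgin and lactating libraries are given without a test. The mt/hGRF transgene expresses human growth hormone-releasing factor, in classical lines from a metallothionein promoter active in many tissues. All libraries were dissociated without enzymes, and their kept cells held 798791 to 4960260 UMIs in all.

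TSH is a dimer of the beta subunit encoded by Tshb and the alpha subunit encoded by Cga, which gonadotropes share for LH and FSH. Hypothalamic TRH acts on thyrotropes through its receptor Trhr, which couples to Gq and phospholipase C beta. Thyroid hormone feeds back on the same cells, where the type 2 deiodinase encoded by Dio2 converts T4 to the active T3. POU1F1 and GATA2 act together on the Tshb promoter, and POU1F1 is also required by somatotropes and lactotropes.

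Tshb lies at chr3:102775465-102782718 on the minus strand, Cga at chr4:34893779-34907370 on the plus strand and Dio2 at chr12:90724552-90738438 on the minus strand of GRCm38, by GENCODE. The 150 bases before the RefSeq start of each of these genes are shown because POU1F1 and GATA2 are known to act on Tshb and the members were chosen by its RNA; the windows are chr3:102782715-102782864 for Tshb, chr4:34893629-34893778 for Cga and chr12:90739039-90739188 for Dio2. Capitals mark matches, on either strand, to a GATA hexamer (AGATAA, its variant AGATAG, the form TGATAA or its variant TGATAG) or to the POU1F1-type heptamer TATNCAT.
Tshb: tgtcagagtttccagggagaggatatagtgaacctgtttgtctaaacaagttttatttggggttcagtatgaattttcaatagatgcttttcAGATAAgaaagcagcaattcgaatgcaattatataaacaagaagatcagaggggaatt
Cga: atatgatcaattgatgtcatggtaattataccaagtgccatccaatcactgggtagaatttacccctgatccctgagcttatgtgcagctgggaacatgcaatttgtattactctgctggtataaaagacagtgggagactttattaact
Dio2: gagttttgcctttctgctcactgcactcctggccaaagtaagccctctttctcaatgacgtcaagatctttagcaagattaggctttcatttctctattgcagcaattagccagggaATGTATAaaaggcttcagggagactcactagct
The Tshb window held a GATA match 58 bases before the start and the Dio2 window a POU1F1-type match 33 bases before it, while the Cga window held neither. Over 27025 promoter windows of the same length, 16.3% held a GATA hexamer and 4.27% the POU1F1-type heptamer. A match is a description of letters and not a bound site.

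Tshb RNA was spread thinly over the whole data set. At least 1 Tshb UMI was present in 1285 cells (5.76%), of which 869 held a single UMI and 216 held at least 2 UMIs but under 0.2% of their total. The 200 Tshb-high cells held 1790 of 3371 Tshb UMIs, 53.1%. Most of them held few: 68 had 2 Tshb UMIs, 29 had 3, 68 had 4 to 9 and 35 had at least 10, with a median of 4 and a highest value of 353. Just inside the rule, the lowest Tshb shares were 0.201%, 0.209% and 0.211% of a cell's UMIs, and just outside it the highest were 0.197%, 0.194% and 0.194%. A further 95 cells held 1 Tshb UMI that was at least 0.2% of their total. There was thus no gap in Tshb share at the lower limit of the rule.

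Free RNA in the droplets was gauged in cells that should lack Tshb, namely 862 cells with at least 2 UMIs of the macrophage complement genes C1qa, C1qb and C1qc. Of these, 20 (2.32%) held a Tshb UMI, against 1265 of 21463 other cells (5.89%), with median depths of 887 UMIs in the macrophage-marker cells and 705 in all kept cells. Of the macrophage-marker cells, 0 of 862 met the Tshb-high rule, which allows a share of up to 0.348%. The share of cells with any Tshb UMI outside the macrophage-marker cells was above this background. In the pair of 10X Genomics libraries, droplets with too few UMIs to be cells held 1.65 and 3.63 Tshb UMIs per 10000.

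Tshb-high cells were found in every library. The 6 WT libraries of 8 weeks gave 9 of 1621 cells (0.555%) in the 10X Genomics female library, 24 of 1610 (1.49%) in the 10X Genomics male library, 11 of 807 (1.36%) and 6 of 1226 (0.489%) in the Drop-seq female replicates 1 and 2, and 14 of 832 (1.68%) and 12 of 1942 (0.618%) in the Drop-seq male replicates 1 and 2. The mt/hGRF library gave 20 of 2768 (0.723%), the virgin library 21 of 3627 (0.579%), and lactating replicates 1 and 2 gave 22 of 2639 (0.834%) and 61 of 5253 (1.16%). Both Drop-seq replicate 2 libraries of 8 weeks stood below both of replicate 1, and the ranges of the groups overlapped.

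The comparison of sexes asks whether the share of Tshb-high cells differs between 8-week WT females and males. The mean share was 0.803% in females and 1.26% in males, a difference of -0.46 percentage points ± 0.42 (SD of 3 pairs). Females were lower in 3 of 3 pairs, with differences of -0.935 points in the 10X Genomics pair and -0.320 and -0.129 in the Drop-seq pairs 1 and 2. The exact permutation test within pairs gave a two-sided p = 0.25, which is the smallest p that 3 pairs can give. The design therefore cannot place this difference beyond chance, and females were lower in 2 of 3 pairs with the filter on ribosomal pseudogenes lifted and also with cells of at least 1 Tshb UMI counted.

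**Figure D1:**
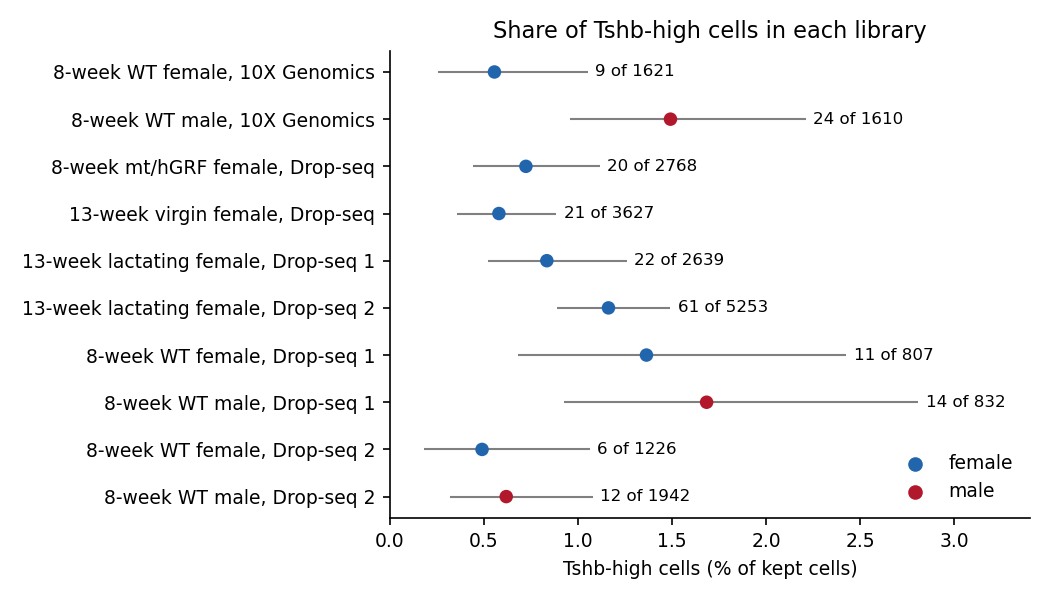
Tshb-high cells as a percentage of kept cells in each of the 10 libraries, with exact 95% intervals that cover counting error only (blue female, red male). Points run from 0.489% in the 8-week WT female Drop-seq replicate 2 to 1.68% in the 8-week WT male Drop-seq replicate 1, and the ranges of females and males overlap.

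Tshb-high cells were of ordinary depth and carried the RNA of other hormones. Their median was 746 UMIs against 704 in the remaining cells, with the member median higher in 7 of 10 libraries, and their median mitochondrial share was 1.69% against 2.06%, lower in 8 of 10. Over the 45 pairs of libraries, 12 kept barcodes were shared, none of them by Tshb-high cells, and no doublet caller was run. Every Tshb-high cell held a Gh UMI (growth hormone), 187 a Prl UMI (prolactin, 93.5%) and 195 a Pomc UMI (the ACTH precursor, 97.5%). In cells of like depth without Tshb these shares were close, at 99.7%, 93.3% and 96.0%. Among the hormone genes Tshb, Gh, Prl, Pomc, Lhb and Fshb, the most abundant in a cell was Gh in 108 cells, Prl in 65, Tshb in 16 and Pomc in 11. The share of cells led by Gh (54.0%) or Prl (32.5%) was close to that in cells of like depth without Tshb (53.8% and 33.0%), and the part of free RNA in these UMIs was not tested. The cell with the most Tshb, from the 8-week WT female 10X Genomics library, had 353 Tshb UMIs of 8023, with 262 UMIs of Cga and 2887 of Gh, and none of Dio2.

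The label of thyrotrope-like cell was checked against Dio2, Cga, Trhr and Gata2, which the rule did not use. At least 1 UMI of one of these was found in 162 Tshb-high cells (81.0%) and in 205 of 600 cells of like depth without Tshb (34.2%). Of the 4 markers, Cga was found in 73% of Tshb-high cells and Gata2 in 11%. Both were more frequent in the gonadotrope-marker cells described below, at 87.6% and 16.4%. Dio2 and Trhr were found in 19% and 5% of Tshb-high cells and in 1.34% and 0% of gonadotrope-marker cells. Cga and Dio2 were found together in 29 Tshb-high cells (14.5%) and in 7 of the 600 (1.17%). Among the 35 cells with at least 10 Tshb UMIs, 31 held at least 1 of the 4 markers. The remaining 38 Tshb-high cells showed none, so that for these cells the name rests on Tshb alone. In cells with Cga or Gata2 but neither Dio2 nor Trhr, the markers do not tell thyrotropes from gonadotropes.

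Detection of the thyrotrope genes was uneven along the Tshb range, and the following shares are a description with no test. Dio2 was found in 1.57% of cells with no Tshb UMI, in 4.37% with 1, and in 11.6% of the deeper cells with 2 or more under the share limit, whose median was 3443 UMIs. Within the Tshb-high cells it was found in 7.35% of those with 2 Tshb UMIs, 6.90% with 3, 27.9% with 4 to 9 and 34.3% with at least 10. The corresponding median depths were 631, 656, 880.5 and 1089 UMIs, so that depth moves with the Tshb class. Trhr was found in 0.0951% of cells with no Tshb UMI, in 0 of 68 and 0 of 29 Tshb-high cells with 2 and 3 Tshb UMIs, and in 7.35% and 14.3% of those with 4 to 9 and at least 10. Gata2 went from 1.82% of cells with no Tshb UMI to 4.41%, 6.90%, 13.2% and 22.9% in the same 4 classes of Tshb-high cells. Col24a1, a fibrillar collagen chain, went from 2.24% to 2.94%, 10.3%, 14.7% and 34.3%. Cga was at 26.9% with no Tshb UMI and at 58.8%, 75.9%, 82.4% and 80.0% in the 4 classes.

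**Figure D2:**
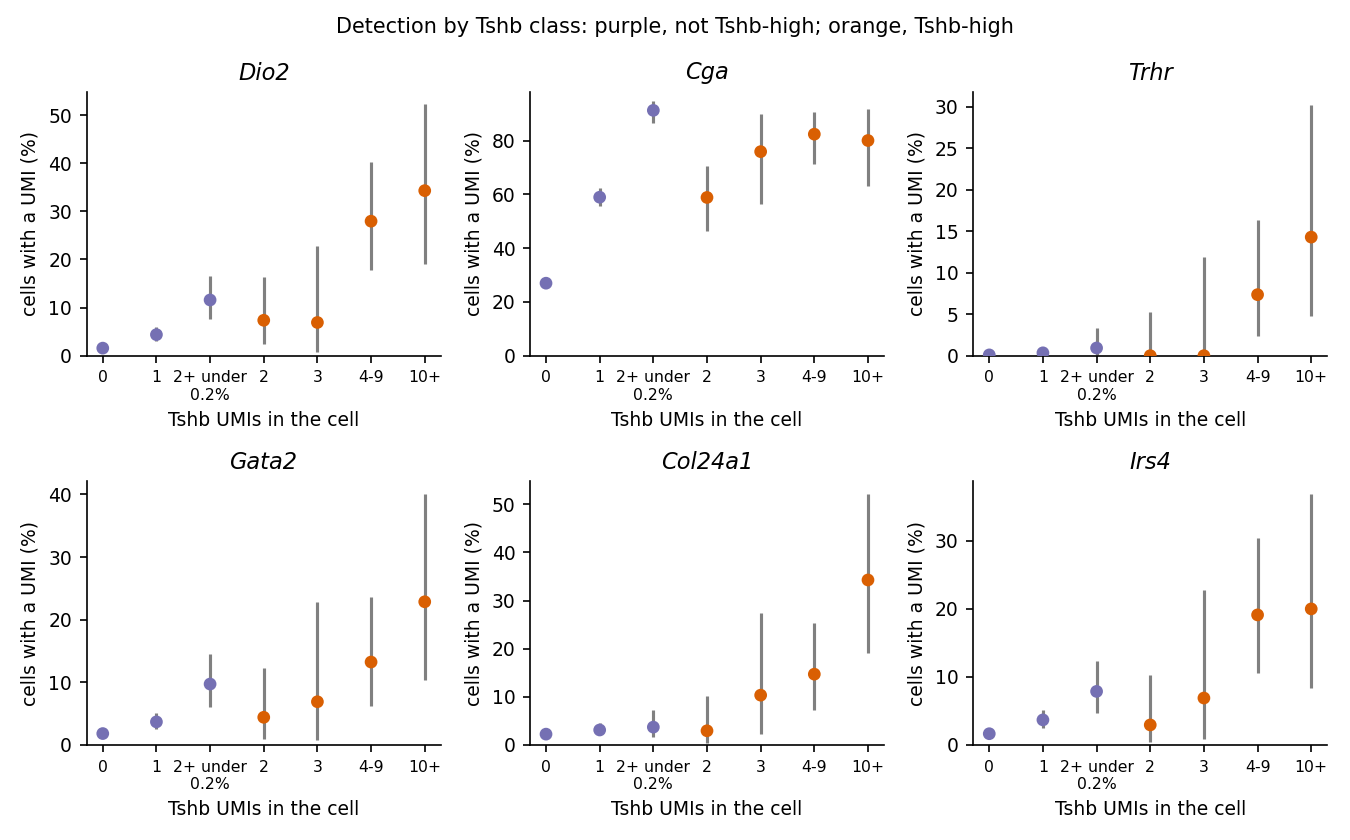
Percentage of cells with at least 1 UMI of each gene, by the number of Tshb UMIs in the cell, with exact 95% intervals (purple, cells outside the Tshb-high rule; orange, Tshb-high cells). Dio2 stands at 1.57% in cells with no Tshb UMI and at 34.3% in Tshb-high cells with at least 10; median depth differs between the classes.

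To remove depth from the comparison, each Tshb-high cell was set beside up to 3 cells of the same library that held no Tshb UMI and were nearest in UMIs other than Tshb, which gave 600 reference cells. Levels are UMIs per 10000 UMIs other than Tshb, summed over the cells of a library. Dio2 in Tshb-high cells had a lowest level of 0.476, a median of 3.13 and a highest of 14.2 over the 10 libraries. In the like-depth cells it had 0, 0.323 and 1.09. Tshb-high cells were above their own reference in 10 of 10 libraries, and the libraries' ranges overlapped because Dio2 was low in the members of the 10X Genomics female library and of the Drop-seq female replicate 1. In all, 38 Tshb-high cells (19.0%) and 14 like-depth cells (2.33%) held a Dio2 UMI.

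Cga levels in Tshb-high cells were 13.7, 39.1 and 189 per 10000 (lowest, median, highest), against 3.04, 12.1 and 22.9 in the like-depth cells. The members were higher in 10 of 10 libraries, with the lowest member level in the mt/hGRF library and the highest in the 10X Genomics female library. There, 262 of the 397 Cga UMIs came from the single cell with the most Tshb. Gata2 levels were 0, 1.57 and 2.84 against 0, 0.162 and 1.09, from 22 Tshb-high and 11 like-depth cells. Members were higher in 6 libraries and lower in 2, and the members of the mt/hGRF library and of Drop-seq replicate 1 of both sexes held no Gata2 UMI. The like-depth cells of the mt/hGRF library and of Drop-seq WT female replicate 1 held none either.

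Trhr gave 13 UMIs in 10 Tshb-high cells of 6 libraries and none in the 600 like-depth cells, 593 Ghrhr-positive cells or 372 gonadotrope-marker cells described here. Its level over all Tshb-high cells was 0.648 per 10000. Against a floor of 3 counts over the whole reference group, this is at least 13.0-fold higher than in like-depth cells, at least 12.6-fold higher than in Ghrhr-positive cells and at least 8.81-fold higher than in gonadotrope-marker cells. These bounds take the 13 UMIs as exact, and 4 of them came from lactating replicate 1 and 4 from Drop-seq WT male replicate 2. Leaving out 1 library, the lowest bounds were 9.001-, 8.66- and 5.96-fold in the same order, each from 9 UMIs. Trhr was too sparse to pass the filter on low counts and was not tested.

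When every cell was thinned to 300 UMIs, the detection differences stayed in the same direction. Dio2 was found in 8.40% of Tshb-high and 0.815% of like-depth cells, Cga in 52.7% and 18.6%, Gata2 in 4.23% and 0.563%, and Trhr in 2.30% and 0%. Pou1f1, the transcription factor of the somatotrope, lactotrope and thyrotrope lineage, was found in 16.9% and 14.6%.

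**Figure D3:**
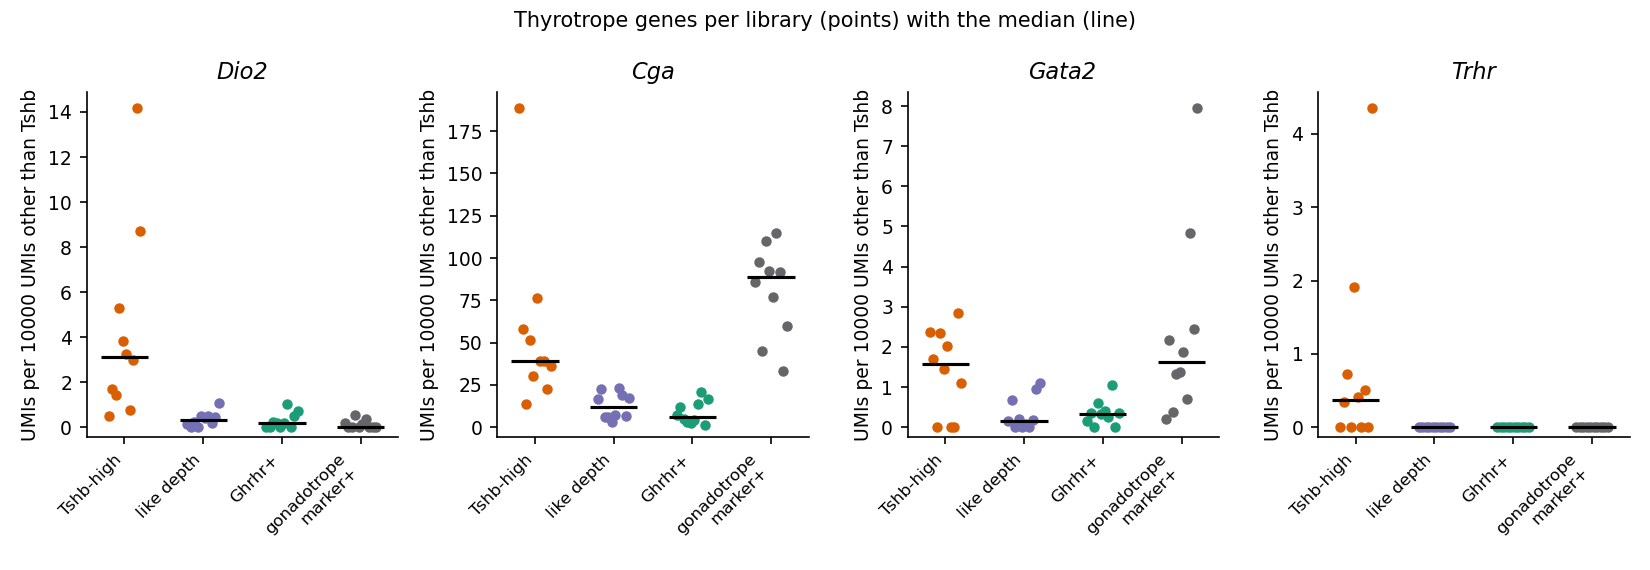
Level of each gene in UMIs per 10000 UMIs other than Tshb, 1 point per library and a line at the median, for Tshb-high cells and the 3 groups of reference cells without Tshb (like depth, Ghrhr-positive, gonadotrope-marker). Dio2 has medians of 3.13 in Tshb-high and 0.323 in like-depth cells, and Cga is highest in gonadotrope-marker cells, with a median of 89.0.

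The fit across genes asks what else distinguishes Tshb-high cells, with Tshb itself taken out. UMIs were summed per library for Tshb-high and for like-depth cells in the 8 libraries that had at least 10 members, and tested with edgeR's quasi-likelihood F test with the library as a block and Benjamini-Hochberg adjustment over all genes tested. The 10X Genomics female library and the Drop-seq WT female replicate 2, with 9 and 6 members, did not enter. Of 6505 genes tested, 42 were called at an adjusted p under 0.05 (0.646%), 6 higher (0.0922%) and 36 lower (0.553%) in Tshb-high cells. With TMM factors over all genes that passed the filter the split was 6 higher to 74 lower. The median log2 fold change over all tested genes was -0.15.

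The 6 genes that rose were Dio2, Col24a1, Plcb1, Irs4, Ccdc28a and Cga. Dio2 rose by 3.17 on the log2 scale (SE 0.47, adjusted p = 9.0e-09, edgeR) and Cga by 1.70 (SE 0.28, adjusted p = 7.1e-07, edgeR). Col24a1 rose by 3.17 (SE 0.53, adjusted p = 1.3e-06, edgeR), with levels of 0, 2.10 and 17.0 per 10000 in Tshb-high cells against 0, 0.239 and 1.09 in like-depth cells, higher in 9 libraries and lower in 1. The level of 17.0 was 12 UMIs of a single cell in Drop-seq WT female replicate 2, which did not enter the fit. The 6 members of that library also gave the highest Dio2 and Irs4 levels. Plcb1, a phospholipase C beta isoform that Gq-coupled receptors can use, rose by 3.0 (SE 0.58, adjusted p = 5.9e-05, edgeR). Its levels were 0, 1.59 and 6.53 against 0, 0.0676 and 1.26, higher in 7 libraries and lower in none. Irs4, an insulin receptor substrate encoded on the X chromosome, rose by 2.61 (SE 0.58, adjusted p = 0.0014, edgeR), with levels of 0, 1.71 and 7.09 against 0, 0.147 and 0.726. Ccdc28a, a coiled-coil protein, rose by 1.98 (SE 0.40, adjusted p = 0.00019, edgeR) from levels of 0.158, 0.661 and 2.84 in like-depth cells to 1.90, 3.16 and 5.01, higher in 10 of 10 libraries. The mt/hGRF members, 20 cells, held no UMI of Gata2, Plcb1 or Irs4, and neither did the 60 like-depth cells of that library.

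Some of these calls rested on particular choices. The Irs4 call was lost without the virgin library (2.14), without lactating replicate 1 (2.42) and with 1 reference cell per member. The Plcb1 call was lost with 1 reference cell per member and in 10X Genomics alone, with a lowest value of 1.91. The Cga call was lost without the library term and in 10X Genomics alone. With members limited to at least 4 Tshb UMIs and 0.5%, which left the 10X Genomics male library and lactating replicate 2, 7 genes were called and the Dio2 and Ccdc28a calls were lost. Dio2 was called again under that rule in libraries of at least 5 members, and its log2 fold change stayed between 2.78 and 3.88 over its 22 alternatives. The Irs4 and Ccdc28a calls were lost under that rule in libraries of at least 5 members. That of Ccdc28a was also lost in 10X Genomics alone and with both arms Pou1f1-positive. With all cells of both arms limited to those with a Pou1f1 UMI the Cga call held at 2.42 on the log2 scale among 2 calls in 1592 genes tested. Gata2 was 2.28 higher on the log2 scale in the fit (SE 0.65), which did not pass (adjusted p = 0.063, edgeR). It was called higher in 6 of 21 alternatives, which ran from 1.65 to 2.67, among them those without Drop-seq WT female replicate 1 or without either Drop-seq WT male replicate.

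The genes called lower in Tshb-high cells included 5 macrophage and 3 red blood cell markers. The macrophage markers are given as a description, because no cell with at least 2 C1q UMIs met the Tshb-high rule while the like-depth cells held 21 such cells. Summed over the macrophage list, Tshb-high cells had 0 to 0.721 UMIs per 10000 by library and like-depth cells 0 to 44.9, and C1qb, Csf1r and Lyz2 were at 0 in Tshb-high cells. C1qb was at least 17.1-fold lower and Ctss (cathepsin S) at least 19.7-fold lower against a floor of 3 counts over the Tshb-high cells, and Tyrobp and Lyz2 were at least 10.7- and 11.2-fold lower. Without the 10X Genomics female library, which did not enter the test, the bounds for C1qb and Tyrobp were 10.2 and 6.56. Of 5 red blood cell markers tested, 3 fell and none rose: Hba-a1 by 4.15, Hbb-bt by 3.41 and Hbb-bs by 2.83 on the log2 scale (all called by edgeR), with a median of -3.41 (-2.83 with Hba-a2 at its floor). Summed over the red blood cell list, libraries ranged from 2.18 to 708 per 10000 in Tshb-high and from 1.81 to 846 in like-depth cells. Hba-a1, Hbb-bt and Hbb-bs were higher in Tshb-high cells in 1, 3 and 4 of 10 libraries. Their calls were lost with 1 reference cell per member, without the library term and in 10X Genomics alone, and that of Hbb-bt also with DESeq2, and all 3 had the opposite sign, without a call, once both arms were limited to Pou1f1-positive cells. The part of macrophages and red blood cells in the other results was not tested. Apoe (apolipoprotein E) fell by 4.37. Neb (nebulin) fell by 2.20, with the call lost, at -1.99 to -2.33, when the mt/hGRF, virgin, lactating replicate 2 or Drop-seq WT male replicate 2 library was left out. Gm6977, a processed pseudogene whose reads may belong to a parent gene, had 35 UMIs in like-depth and 1 in Tshb-high cells, and its call was lost without the virgin library or Drop-seq replicate 1 of either sex.

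The other hormones did not pass in either direction. Gh levels were 586, 1288 and 2045 per 10000 in Tshb-high cells against 675, 948 and 1610 in like-depth cells (log2 fold change 0.02). Prl had 65.3, 382 and 1429 against 60.9, 306 and 1137 (-0.03), and Pomc had 115, 158 and 342 against 119, 236 and 795 (-0.64). Prl in the Tshb-high cells followed the library: it was 1428 in the virgin and 1162 and 1429 in the lactating libraries, 585 in the mt/hGRF library, 127, 645 and 179 in 8-week WT females and 87.2, 80.1 and 65.3 in 8-week WT males. Lhb and Fshb, the beta subunits of the gonadotropins, gave log2 fold changes of 0.16 and -1.78, and Pou1f1 gave 0.17, with levels of 3.35, 6.64 and 11.7 against 2.36, 4.40 and 7.63. These values moved with the member rule. With at least 4 Tshb UMIs and 0.5% in libraries of at least 5 members, Gh was called lower at -1.58 and Prl at -1.61, and Pomc was called lower in 4 alternatives, down to -2.78. Gh, Prl and Pomc UMIs are part of the total behind the Tshb share, so a higher share limit favours cells with fewer of them. How far this moved these values was not tested. Pou1f1 was called in none of 25 alternatives, which ran from -0.62 to 0.32. These include the setting with both arms limited to Pou1f1-positive cells, where every cell held Pou1f1 by choice.

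The gene groups around thyrotrope function were measured but few members passed. Over all 6505 genes tested, 0.646% were called, 0.0922% higher and 0.553% lower. Lists of up to 22 genes are too short for 0 calls to set them apart from that share. Among 15 thyroid hormone feedback and transport genes tested, 1 rose (Dio2) and none fell, with a median of -0.13. The retinoid X receptor gene Rxrg gave 1.3 and the thyroid hormone receptors Thrb and Thra 0.19 and -0.64, none called. Among 16 TRH receptor signalling genes, 1 rose (Plcb1) and none fell, with a median of 0.15, where the Gq alpha subunit Gnaq gave 0.97, the IP3 receptor Itpr1 0.92 and the kinase Prkcb -1.92. None of 16 pituitary lineage transcription factors passed (median -0.59), with Nr4a2 at -1.71, Egr1 at -2.01 and Six6 at -1.15. None of 9 immediate early genes passed, with a median of -1.49, and none of 22 genes of ER folding and N-glycan processing, which TSH needs as a glycoprotein. None of 17 granin and prohormone processing genes (median -0.20), 9 somatotrope and lactotrope markers, 4 gonadotrope markers, 3 melanotrope and corticotrope markers, 3 multi-hormone genes, 5 receptors, 2 stem cell, 2 stromal, 2 proliferation or 2 pituicyte markers passed. The multi-hormone genes were chosen by the study on these samples. Of 6 hormone genes tested, Cga was the 1 that passed. No endothelial marker and 1 of 5 T and NK cell markers was abundant enough to test, and all 5 of the latter were at 0 in Tshb-high cells.

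Somatotropes share the POU1F1 lineage with thyrotropes, so Tshb-high cells were next compared with 593 depth-matched cells that held a Ghrhr UMI (the receptor for growth hormone-releasing hormone) and no Tshb. Of 6380 genes tested by edgeR in the same 8 libraries, 24 were called (0.376%), 17 higher (0.266%) and 7 lower (0.11%) in Tshb-high cells, with a median of -0.09 over all genes. The direction of the split depended on the method: it was 12 higher to 123 lower with TMM factors over all genes that passed the filter and 16 to 121 with DESeq2. The comparisons draw on the same Tshb-high cells, so they are not independent and their values are given side by side.

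Cga rose by 2.39 (SE 0.24, adjusted p = 5.3e-20, edgeR), with reference levels of 1.47, 5.82 and 20.8 per 10000, and Dio2 rose by 3.71 (SE 0.48, adjusted p = 1.4e-11, edgeR). Col24a1, Irs4 and Plcb1 also rose, by 2.59, 2.71 and 2.47. Of 16 granin and prohormone processing genes 3 rose and none fell, with a median of 0.33. Over all 6380 genes tested, 0.266% were called higher and 0.11% lower. Chgb (chromogranin B) rose by 1.75 (SE 0.22, adjusted p = 2.2e-12, edgeR), with levels of 26, 58.4 and 181 in Tshb-high cells against 4.11, 15.8 and 65.7, higher in 10 of 10 libraries. Scg2 (secretogranin II) rose by 1.33 and Resp18 (a granule protein of endocrine cells) by 1.26, calls lost in 4 and 5 alternatives of 24 each, and that of Chgb was lost in 2. Mest, an imprinted gene, rose by 1.69, with levels of 3.52, 4.98 and 18.4 against a reference median of 1.70, higher in 10 of 10 libraries. Igfbp5 (a binding protein of insulin-like growth factors) rose by 2.01 and the ER stress protein gene Manf by 1.71. The Igfbp5 and Mest calls were lost under both stricter member rules and in 10X Genomics alone, with lowest values of 0.99 and 0.48. The Manf call was lost in 6 alternatives, TMM factors over all genes and 1 reference cell per member among them. The Irs4 call was lost without the virgin library (2.25) and the Resp18 call without lactating replicate 2 (1.06). Manf was the only gene of 20 for ER folding and N-glycan processing that passed.

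Prl rose by 1.20 (SE 0.22, adjusted p = 2.8e-05, edgeR) over reference levels of 39.1, 158 and 676 per 10000, but its sign turned to -0.60, without a call, when members needed at least 4 Tshb UMIs and 0.5%. That rule favours cells with few Prl UMIs, which are part of the total behind the Tshb share. How far this moved the Prl value was not tested. The Prl call was also lost with TMM factors over all genes, without the library term and in 10X Genomics alone. The reference was itself chosen by a Ghrhr UMI, so falls of genes that go with Ghrhr follow from that choice. The falls are therefore given as a description. Neb, a gene for a large filament protein best known from muscle, fell by 3.72 (SE 0.44, adjusted p = 4.6e-14, edgeR), from 0.492, 5.71 and 9.17 to 0, 0 and 1.00, lower in 10 of 10 libraries. It was found in 28.5% of Ghrhr-positive, 10.3% of like-depth and 5.38% of gonadotrope-marker cells. Rufy4 fell by 2.40 and the maternally expressed noncoding RNA Mirg by 1.26. The Mirg call was lost without the library term and in 10X Genomics alone, with a weakest value of -0.58 over its alternatives. That of Rufy4 was lost under the stricter member rule in libraries of at least 5 members. Homer2 and Cyp27a1 were each called lower with a single UMI left in Tshb-high cells, against 64 and 61 in the reference, and both calls were lost without the 10X Genomics male or the virgin library, that of Homer2 also without lactating replicate 2 and that of Cyp27a1 without Drop-seq WT male replicate 2. Gh (-0.49), Pou1f1 (-0.14) and Gata2 (1.53) did not pass, nor did Ccdc28a at 1.11. Gh was called lower in 4 of 23 alternatives, DESeq2 and TMM factors over all genes among them, with a lowest value of -1.98, and Gata2 and Ccdc28a were each called higher in 1.

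Gonadotropes share the alpha subunit with thyrotropes, so a further reference was drawn from cells with at least 1 Gnrhr (the GnRH receptor) or 2 Fshb UMIs and no Tshb, which gave 372 cells. Such cells were scarce, and in the 8 libraries tested 14 of 185 Tshb-high cells found no match within 25% of their depth and did not enter, leaving 171. The levels given per 10000 are over all Tshb-high cells. The reference was deeper than the matched Tshb-high cells at the median in 6 of the 8 libraries, by up to 1.32 times. With 1 reference cell per member, where the medians stayed within 0.963 to 1.04 times, 39 genes were called against 49. Of 5435 genes tested by edgeR, 49 were called (0.902%), 16 higher (0.294%) and 33 lower (0.607%) in Tshb-high cells, with a median of -0.10. With TMM factors over all genes that passed the filter the split was 12 to 80. Gnrhr and Fshb defined the reference and were not tested.

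Pou1f1 rose by 2.02 (SE 0.32, adjusted p = 1.5e-07, edgeR), from reference levels of 0.356, 1.97 and 4.58 per 10000, and was higher in 10 of 10 libraries. Dio2 rose by 4.50 (SE 0.57, adjusted p = 4.0e-12, edgeR), Mest by 2.34, Chgb by 1.5, Col24a1 by 3.64, Plcb1 by 3.69, Irs4 by 3.53 and Ccdc28a by 1.85. The noncoding RNA gene Gm7967 rose by 2.35, a call lost without Drop-seq WT male replicate 1 (2.09). B230334C09Rik, an antisense gene with 16 UMIs in Tshb-high cells and 2 in the reference, was also called higher, a call lost with 1 reference cell per member. Counting by strand is stated for Drop-seq and not for 10X Genomics.

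Cga fell by 1.08 (SE 0.26, adjusted p = 0.0048, edgeR), from gonadotrope-marker levels of 33.4, 89.0 and 115 per 10000, lower in 9 of 10 libraries, although the call was lost without lactating replicate 1 (-1.0) and in 5 other alternatives, 1 reference cell per member among them. Over its 22 alternatives the value ran from -1.43 to -0.07. Lhb fell by 2.07 (SE 0.35, adjusted p = 8.4e-07, edgeR), from 1.62, 7.53 and 15 to 0, 1.60 and 6.53. All 3 gonadotrope markers tested fell. The reference was itself chosen by gonadotrope markers, so falls of other gonadotrope genes follow from that choice and are given as a description. The gonadotrope gene Tgfbr3l fell by 3.42 and Nr5a1, the gonadotrope transcription factor SF-1, was left with 1 UMI in Tshb-high cells against 54 in the reference. Ecel1 fell by 3.07 and Prkcb, a protein kinase C isoform, by 4.10 with 1 UMI left. Of 16 granin and prohormone processing genes 1 rose (Chgb) and 3 fell: Chga (chromogranin A) by 1.98, Scg2 by 1.32 and the prohormone convertase gene Pcsk1 by 1.97. Over all 5435 genes tested, 0.294% were called higher and 0.607% lower. The Pcsk1 call was lost without the virgin library (-1.85) or Drop-seq WT male replicate 2 (-1.76). Ttc24, Cklf and Vegfd had no UMI in Tshb-high cells, which puts them at least 15.3-, 8.36- and 5.90-fold lower against a floor of 3 counts over the group, the Vegfd call being lost without lactating replicate 2. Dlgap1 kept 1 UMI against 84. Gata2, which gonadotropes also express, gave -0.86 and did not pass, with median levels of 1.57 in Tshb-high and 1.61 in gonadotrope-marker cells.

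Across the 3 references, 4908 genes were tested in all, and 4 were called higher each time: Dio2, Col24a1, Plcb1 and Irs4. As all 3 draw on the same Tshb-high cells, this count is a description. With 1 reference cell per member the Plcb1 and Irs4 calls were lost against like-depth and Ghrhr-positive cells. Against Ghrhr-positive and gonadotrope-marker cells alone, Chgb and Mest were called higher in both. Against like-depth cells these gave 0.70 and 0.62 and did not pass, although Chgb was higher in 10 of 10 and Mest in 9 of 10 libraries and Chgb was called in 2 of 25 alternatives. Col24a1 is located at chr3:145292472-145552011 (plus strand), Plcb1 at chr2:134786067-135475258 (plus strand), Irs4 at chrX:141710998-141725263 (minus strand) and Ccdc28a at chr10:18213676-18234998 (minus strand) of GRCm38, so that the genes called higher with Cga and Dio2 lie at separate places. None of the promoter windows of these 4 genes held a GATA hexamer or the POU1F1-type heptamer.

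**Figure D4:**
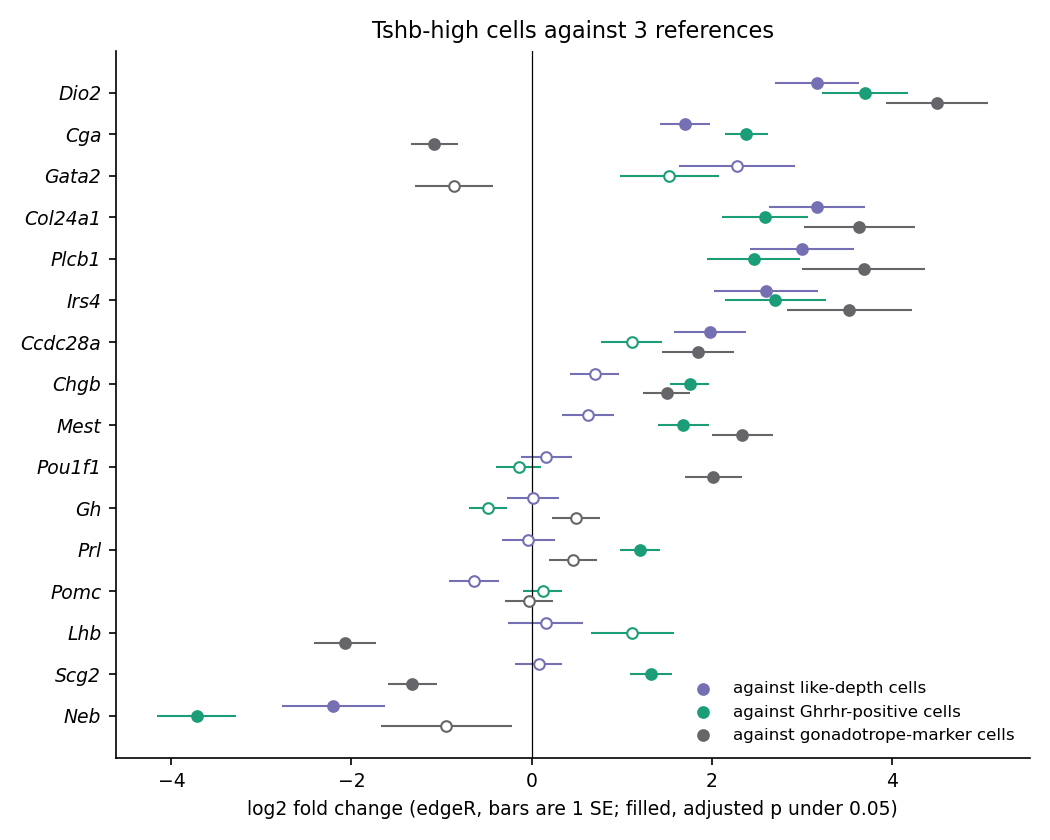
Log2 fold change (with 1 SE either side) of named genes in Tshb-high cells against like-depth, Ghrhr-positive and gonadotrope-marker cells, where filled points have an edgeR adjusted p under 0.05. Dio2 is at 3.17, 3.71 and 4.50 against the 3 references, while Cga is at 1.70 and 2.39 against the first 2 and at -1.08 against gonadotrope-marker cells.

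Variation among the Tshb-high cells themselves was examined by pairing members of adjacent depth within a library and assigning the cell of each pair with the larger Tshb share to an upper group and the other to a lower group. Of 1598 genes tested by edgeR in 8 libraries, none was higher (0%) and 4 were lower (0.25%) in the upper group, with 51 genes at an unadjusted p under 0.05 and 1 call by DESeq2. Prl fell by 2.20 (SE 0.37, adjusted p = 2.4e-06, edgeR). Its levels were 2.06, 141 and 920 per 10000 in the upper group and 101, 566 and 2291 in the lower group, lower in 10 of 10 libraries. Prl UMIs are themselves part of the total behind both the depth and the Tshb share, and when they were left out of both, Prl was at -0.77 and the call was lost. Hbb-bt, Hba-a1 and Hbb-bs fell by 4.78, 3.51 and 2.35, but with Hbb-bs UMIs left out of depth and share they were at 0.70, 0.051 and -0.18 with no call. The mt/hGRF library had 571 Hbb-bs UMIs in its lower and 2 in its upper group, and without that library the 3 globin genes were at -1.5 (Hbb-bs), -2.08 (Hba-a1) and -2.72 (Hbb-bt) with no call. The Hbb-bs call was also lost without lactating replicate 2, at -1.69.

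Dio2 was higher in the upper group in 8 of 10 libraries, by 1.31 on the log2 scale (SE 0.56), and did not pass (adjusted p = 0.996, edgeR). Cga, with 0.13, and Gata2, with 0.73, did not pass either. Gh gave -1.09 and Pomc -0.98, also without a call. Their UMIs are part of the total behind the Tshb share too, and with its own UMIs left out of depth and share Gh was at -1.20 and Pomc at -1.10, neither called. Without the mt/hGRF library, where they were not left out, both were called lower (Gh at -1.35), as was Gh with filterByExpr. Each group held 5 to 30 cells per library, and at that depth a difference in a gene as sparse as Dio2 could be missed.

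**Figure D5:**
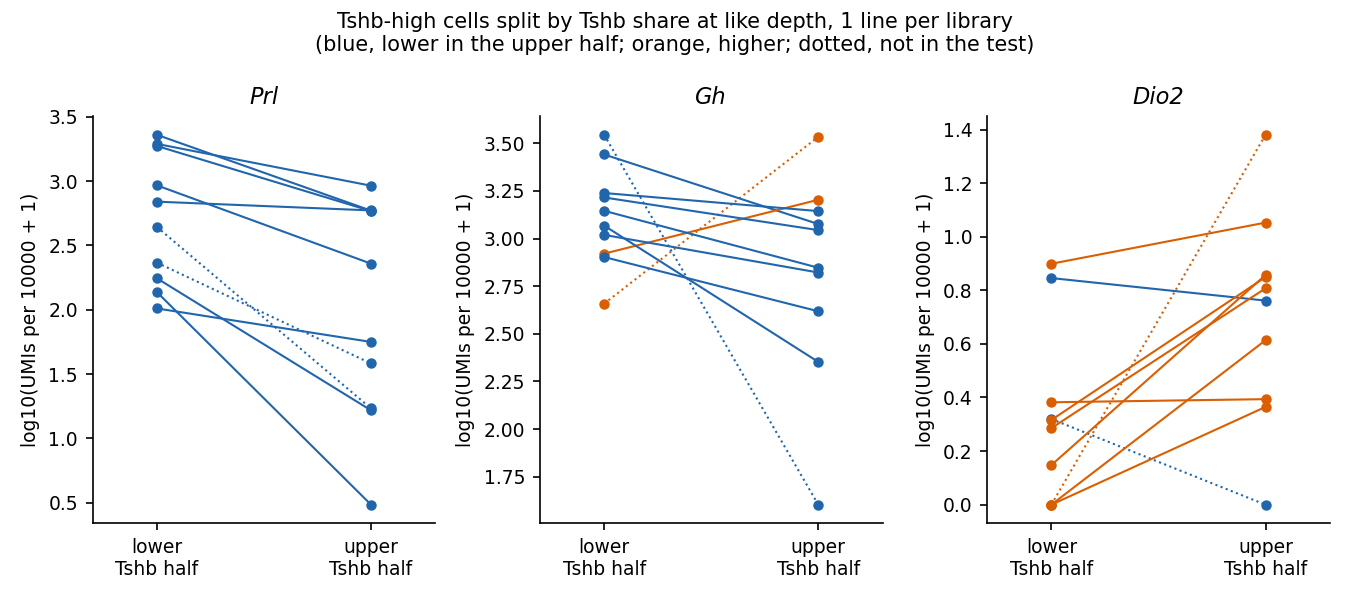
Level of each gene, as log10 of UMIs per 10000 plus 1, in the lower and the upper Tshb group of the Tshb-high cells of each library, joined by a line (blue, lower in the upper group; orange, higher; dotted, a library outside the test). Prl is lower in the upper group in 10 of 10 libraries, whereas Dio2 is higher in 8 of 10.

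The sexes were also compared within the Tshb-high cells of the 8-week WT libraries. The female libraries held 9, 11 and 6 Tshb-high cells and the male libraries 24, 14 and 12, so a minimum of 5 members per library, chosen after seeing the data, was used here in place of 10. Of 756 genes tested by edgeR with platform as a term, 2 were called (0.265%), 1 higher (0.132%) and 1 lower (0.132%) in females, and 34 genes had an unadjusted p under 0.05. With the female and male library of each pair as a replicate block, 2 genes were called as well.

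Xist, the noncoding RNA that silences an X chromosome in female cells, was called higher in females (adjusted p = 6.8e-07, edgeR). Its levels were 84.2, 30.7 and 69.5 per 10000 in the 10X Genomics female library and the Drop-seq female replicates 1 and 2, and no Xist UMI was found in the Tshb-high cells of the 3 male libraries. Cwc22, a splicing factor gene of which some mice carry extra copies, was 4.76 lower in females on the log2 scale (SE 0.95, adjusted p = 0.0072, edgeR). Its levels were 0.476, 0 and 0 in the female libraries and 1.37, 16 and 17.4 in the male libraries in the same order, and its call was lost with DESeq2 and without any 1 of the 6 libraries other than the 10X Genomics male. Of the genes that marked Tshb-high cells, Dio2 gave -0.33 and Cga 0.30 between the sexes, and neither passed. Prl, at 1.81, did not pass either (adjusted p = 0.916, edgeR), although it was higher in the female library of 3 of 3 pairs.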

How the data were processed

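The authors deposited whole-number UMI counts per gene and barcode, aligned to mm10, and the submitters' processing notes name STAR 2.5.2a and Cell Ranger. For Drop-seq the study's methods count reads in exons on the annotated strand. For 10X Genomics the strand and intron settings are not given in the sources used here. Drop-seq barcodes with at least 300 UMIs and 100 to 4000 genes, or 10X Genomics barcodes with 201 to 2999 genes, were kept when mitochondrial RNA was under 10% and ribosomal pseudogene RNA under 1% of UMIs. Droplets with fewer UMIs served only to measure free RNA. Members and gene lists were chosen with earlier results of these data known.

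Each member was matched to up to 3 unused reference cells of its library within 25% of its UMIs other than Tshb. Counts summed per library and arm were tested with edgeR 4.0.16 (R 4.3.3), two-sided, for genes with at least 15 UMIs over all sums and a UMI in at least 3 sums, in libraries with at least 10 members. TMM factors came from genes with a UMI in every sum, 532, 536, 469, 94 and 526 genes in the like-depth, Ghrhr-positive, gonadotrope-marker, upper against lower and female against male comparisons. This choice was made after factors over all genes shifted unequal arms in data tested by simulation. DESeq2 1.42.0 was an alternative. P-values measure the spread between libraries. Female and male libraries were paired by platform and by the digits their titles share, whose meaning the labels do not state: deviations from the sex means correlated within pairs at 0.669, 0.232 and 0.358 over 756 genes.

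Genes named are Tshb, Cga, Dio2, Trhr, Gata2, Pou1f1 and the other hormones, up to 10 higher and 5 lower called genes with 1 sign in every library (5 and 5 in the later comparisons) and, per list, up to 4 genes of smallest p against like-depth cells. Apoe, Scg2, Ecel1, Chga, Thrb and Thra, outside this rule, were chosen after their values were seen. Promoter windows are from RefSeq on GRCm38.p6 and gene positions from GENCODE on GRCm38.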

Additional observations from a re-analysis of the deposited data

Results flagged for a closer look

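Egr1, an immediate early transcription factor gene, was singled out because the 8-week WT female and male libraries of Tshb-high cells moved in opposite directions. Its level was higher in Tshb-high than in like-depth cells in 3 of 3 of these female libraries, by a mean of 1.19 UMIs per 10000, with levels of 0.951 against 0, 1.54 against 1.29 and 4.25 against 1.89. It was lower in 3 of 3 male libraries, with 0.342 against 0.683, 0 against 0.334 and 0 against 5.08. The female values rest on 2, 2 and 3 UMIs in Tshb-high cells and the male values on 1, 0 and 0. The other female libraries did not share the direction: their Tshb-high cells held no Egr1 UMI, against 1.68 per 10000 in like-depth cells of the mt/hGRF library, 0 in the virgin and 0.160 and 0.0676 in the lactating libraries. The difference between the sexes was not tested.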

How the results depend on the processing

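Over 1347 alternative values of the 62 called gene values named here, 1185 kept direction and call, 155 lost the call and 7 reversed. Of 1156 alternative values of 56 uncalled ones, 22 became called with the same sign and 2 with the opposite one. These tallies are a description and not a measure of robustness. The cell with the most Tshb lies in a library outside the fits against reference cells, so leaving it out could change nothing there. In those fits, Drop-seq alone was the same as leaving out the only library of the other platform. Settings in which a gene was not tested are not counted. Added settings, the choice of factor genes among them, were made after seeing the data. The reversed values were Hbb-bt 2.59, Hba-a1 1.76 and Hbb-bs 1.79 against like-depth cells with both arms Pou1f1-positive, Prl against Ghrhr-positive cells at -0.60 with members of at least 4 Tshb UMIs and 0.5% and -0.72 with that rule in libraries of at least 5 members, and, under the latter, Gh at -1.58 against like-depth cells and Pomc at -1.65 against Ghrhr-positive cells. Between upper and lower Tshb groups Hbb-bt and Hba-a1 reversed, to 0.70 and 0.051, without Hbb-bs UMIs in depth and share.

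The 42 calls against like-depth cells became 80 with TMM over all genes, 9 with filterByExpr, 26 without the library term, 7 under the stricter member rule, 14 under it in libraries of at least 5 members, 2 in Pou1f1-positive cells and 2 in 10X Genomics alone at 5 members (30 to 47 leaving out 1 library). The 24 calls against Ghrhr-positive cells became 137 with DESeq2, 135 with TMM over all genes, 14 with filterByExpr, 11 without the library term, 8 and 14 under the stricter rules, 14 with 1 reference cell per member and 2 in 10X Genomics (16 to 29). The 49 against gonadotrope-marker cells became 92 with TMM over all genes, 19 with filterByExpr, 83 with all libraries of at least 5 members, 3 in 10X Genomics and 27 under the stricter rule at 5 members (38 to 57). The 4 between upper and lower Tshb groups became 1 with DESeq2, 2 with filterByExpr, 2, 6, 1 and 1 without Prl, Gh, Pomc or Hbb-bs UMIs in depth and share, and 0 under both stricter rules and in 10X Genomics (3 to 6). Of the 6 without Gh UMIs, 1 was higher in the upper group, as was 1 without the 5% highest UMI totals. Filters and smaller cell sets test fewer genes or samples. For the other changes the cause was not tested.

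The scaling matters for direction. In the like-depth comparison the median over all genes was -0.15, and -0.51 with TMM over all genes or -0.02 with library totals. Higher against lower calls were 6 to 36, and 6 to 74 with TMM over all genes. Against Ghrhr-positive cells they were 17 to 7, and 12 to 123 with TMM over all genes or 16 to 121 with DESeq2. Against gonadotrope-marker cells they were 16 to 33, and 12 to 80 with TMM over all genes. The mean sex difference in share stayed negative in each of these settings, from -2.03 with at least 1 Tshb UMI to -0.28 after thinning, and from -0.78 to -0.25 leaving out 1 library.

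Within Tshb-high cells the 2 calls between the sexes stayed 2 with the replicate block, which changed no call, and became 1 with DESeq2, with or without the block, 1 with filterByExpr, and 0 in Drop-seq alone (8 genes at an unadjusted p under 0.05) (0 to 2 leaving out 1 library, where without any female library Xist was seen in too few sums to be tested). At 10 members per library, and under the stricter rule, this comparison could not be run. The stricter rule against gonadotrope-marker cells and 10X Genomics alone at 10 members were also not run, for lack of libraries. Depth limits all results: at a median of 746 UMIs per Tshb-high cell, genes such as Trhr fell below the test's filter.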
